A study of Mus musculus with 24 samples.

Results

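Genes of the SLC25 family were examined in the hearts of mice that carry the Clock delta 19 mutation on both alleles. Members were all genes whose single symbol on the array is Slc25a followed by a number, which gave 46 of the 22180 genes tested, each measured by 1 array feature. This rule reads symbols alone, though it was set with earlier results of these data known. The symbols of 4 further genes of the family, Ucp1, Ucp3, Mtch1 and Mtch2, do not follow this pattern, and they are described apart from the 46 members.

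The animals were male and 8 weeks old and were kept under 12 h of light and 12 h of darkness. Hearts, labelled as myocardium, were taken every 4 h at 6 zeitgeber times (ZT, hours after lights on), with 4 biological replicates per time point and 24 hearts in all. The first 3 times (ZT03, ZT07, ZT11) fall in the light and the last 3 (ZT15, ZT19, ZT23) in darkness. Every heart carries this germline mutation of the clock gene Clock, which leaves a protein deficient in activating transcription. The values therefore describe time of day in mutant hearts, and no genotype was compared. The labels do not say whether each replicate is 1 animal or a pool, or which hearts were processed together.

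SLC25 proteins are small membrane carriers, most of which sit in the inner mitochondrial membrane and swap a metabolite, nucleotide or cofactor between cytosol and matrix. In heart muscle, which draws nearly all its energy from mitochondria, they bring in phosphate and ADP and let out ATP, admit fatty acids as acylcarnitines, and move the reducing equivalents of NADH inward through the malate-aspartate shuttle. A few members work elsewhere, such as SLC25A17 in peroxisomes and SLC25A46 in the outer mitochondrial membrane.

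The promoter sequences of the 3 members that passed a test below, and of Slc25a13, the nearest paralog of Slc25a12, are shown because CLOCK acts through the E-box CACGTG. Each run is the 250 bases before the start site on the strand of the gene, from RefSeq (GRCm38.p6), 5′ to 3′. Capitals mark CACGTG and the CCAAT box, whichever of them is present.
Slc25a12 (chr2:71367756-71368005, minus strand): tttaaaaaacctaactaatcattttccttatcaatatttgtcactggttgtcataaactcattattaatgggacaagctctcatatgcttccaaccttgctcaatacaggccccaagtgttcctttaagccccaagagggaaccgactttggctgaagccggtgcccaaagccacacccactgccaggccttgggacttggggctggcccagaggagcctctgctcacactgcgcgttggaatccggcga
Slc25a16 (chr10:62920383-62920632, plus strand): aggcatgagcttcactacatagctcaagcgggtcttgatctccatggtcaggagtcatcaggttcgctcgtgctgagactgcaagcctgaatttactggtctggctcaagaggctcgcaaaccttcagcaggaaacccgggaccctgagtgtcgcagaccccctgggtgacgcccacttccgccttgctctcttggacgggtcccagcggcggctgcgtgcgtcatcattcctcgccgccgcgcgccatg
Slc25a17 (chr15:81360766-81361015, minus strand): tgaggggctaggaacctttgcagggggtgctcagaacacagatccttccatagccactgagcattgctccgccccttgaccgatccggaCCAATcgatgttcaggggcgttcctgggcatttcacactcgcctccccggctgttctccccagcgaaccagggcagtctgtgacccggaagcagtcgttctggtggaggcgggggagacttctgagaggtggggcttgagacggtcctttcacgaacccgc
Slc25a13 (chr6:6217174-6217423, minus strand): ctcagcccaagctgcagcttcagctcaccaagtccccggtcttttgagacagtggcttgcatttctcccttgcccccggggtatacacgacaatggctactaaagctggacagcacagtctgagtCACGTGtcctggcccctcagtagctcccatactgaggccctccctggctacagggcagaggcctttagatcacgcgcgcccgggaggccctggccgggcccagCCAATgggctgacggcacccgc

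The Slc25a13 window held CACGTG, 125 bases before the start, and CCAAT, 22 bases before it. The Slc25a17 window held CCAAT alone, 161 bases before the start, and the windows of Slc25a12 and Slc25a16 held neither. Promoter windows were found for 36 of the 46 members by symbol. CACGTG, which reads the same on both strands, was present in 7 of the 36 (19.4%; Slc25a1, Slc25a13, Slc25a14, Slc25a15, Slc25a31, Slc25a33 and Slc25a36), against 6.86% of 27025 genes with such windows. CCAAT on either strand was present in 18 of 36 (50.0%), against 37.5% of all genes. AAGGTCA on either strand, a site of ERR and ROR family receptors, was present in 1 member, Slc25a34 (2.78%), against 4.70%. These are matches of letters and say nothing of binding.

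Expression is given in log2 units (the base is assumed) relative to the median of the gene over the 24 hearts, so levels of different genes cannot be compared. The spacing of the deposited numbers does sort features coarsely: 666 of 34351 features (1.94%) are spaced as numbers stored between 8 and 16 before centring, and the others as smaller numbers. Of the 46 members, 6 lay in this higher number class: Slc25a3, Slc25a4, Slc25a5, Slc25a11, Slc25a12 and Slc25a46. All 6 cardiomyocyte markers checked (Myh6, Actc1, Tnnt2, Tnni3, Ryr2 and Mb) lay in it as well, which matches the labelled tissue. Genes of the higher class passed the test over time points more often than others, 8.89% against 1.33%. ZT11 replicate 1 stood apart from the other hearts: its values had the largest SD over features (0.153, the others 0.095 to 0.134), and for 16.2% of all genes its value was beyond every other heart. In the clock gene Arntl, ZT19 replicate 2 was at -0.83, where no other heart was below -0.42. Calls of single genes that were lost or gained without ZT11 replicate 1 are given with both values, and no call printed for a single gene was lost without ZT19 replicate 2 alone. Precision is limited by the number of arrays, 4 per time point, and the median SD within time points was 0.11 for members and 0.087 for all genes.

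Across the 6 time points, Slc25a12 and Slc25a16 were the members that differed, and both ran high in early light and low around ZT11 to ZT15 and at ZT23. In limma's F test with Benjamini-Hochberg adjustment over all genes, 2 of 46 members passed at 0.05, where 1.48% of all genes did. An unadjusted p under 0.05 was found for 10 members (21.7%), against 13.4% of all genes: Slc25a11, Slc25a12, Slc25a13, Slc25a16, Slc25a17, Slc25a23, Slc25a32, Slc25a38, Slc25a40 and Slc25a48. The highest time-point mean fell at ZT03 for 15 members (32.6%, all genes 17.3%) and at ZT23 for 2 (4.35%, all genes 16.3%). The lowest mean fell at ZT23 for 17 members (37.0%, all genes 15.5%). ZT23 replicate 4 was the lowest of the 4 ZT23 hearts in 21 members and in 29.5% of all genes. For 12.4% of all genes its value was beyond every other heart. How far the count at ZT23 rests on this heart was not tested. Of the 6 members in the higher number class, 5 had their highest mean at ZT03, the exception being Slc25a3. Of the 40 members outside that class, 10 had theirs at ZT03. Of all 461 genes of that class, 33.8% were highest at ZT03 and 25.8% lowest at ZT23, and their median of the ZT03 means was 0.026, against 0.022 for the 46 members.

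**Figure D1:**
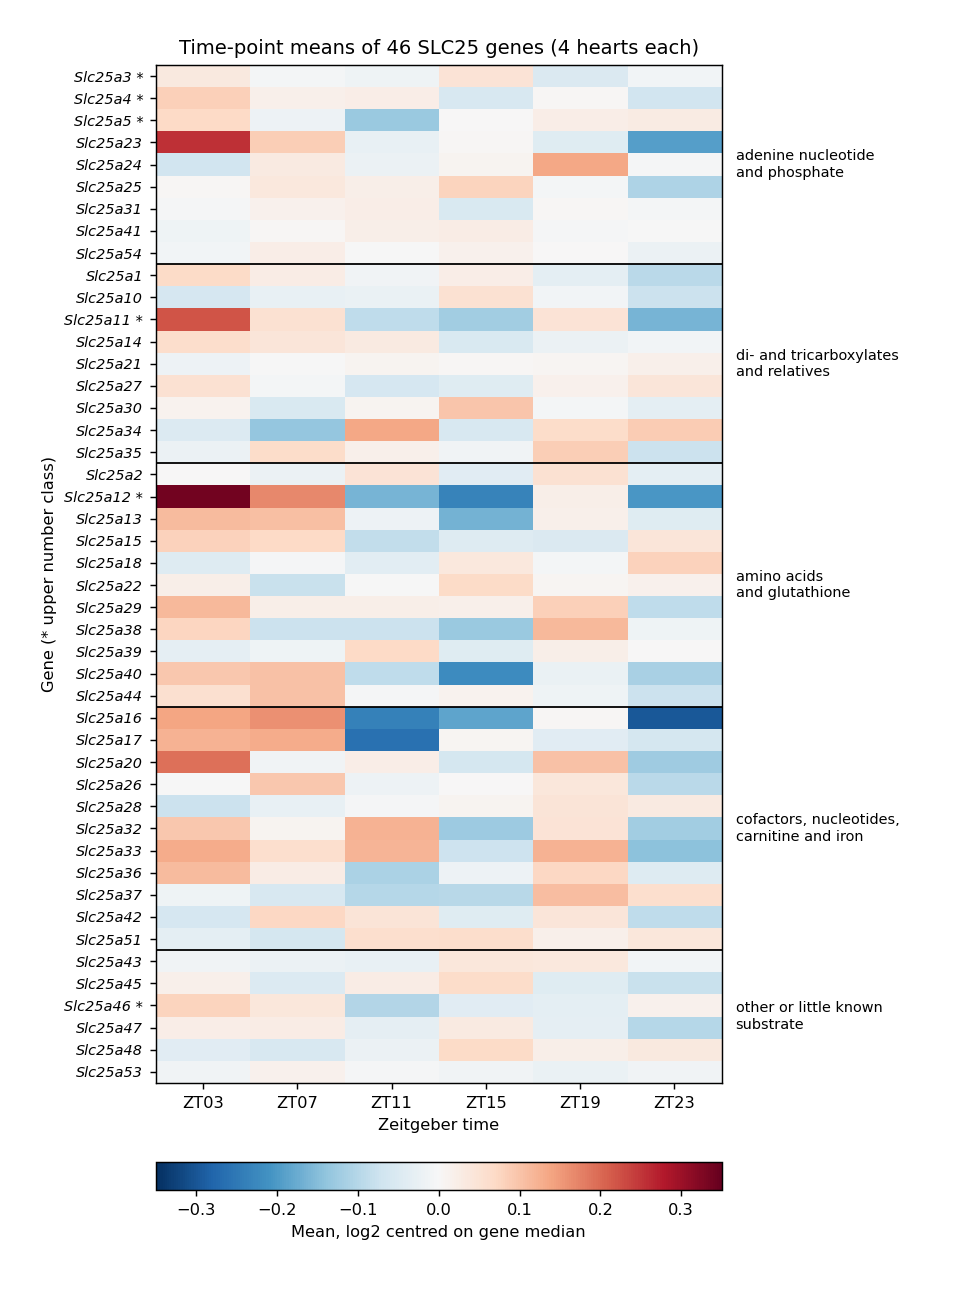
Time-point means of the 46 SLC25 genes (rows, grouped by role; columns, 6 zeitgeber times; colour, mean of 4 hearts in log2 around the gene's median; an asterisk marks the higher number class). Red at ZT03 and blue at ZT23 recur down the rows, with 15 members highest at ZT03 and 17 lowest at ZT23, and Slc25a12 spans the widest range.

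Slc25a12 encodes aralar, the calcium-regulated exchanger of aspartate for glutamate that is the main form of this carrier in heart, brain and skeletal muscle. At ZT03 its 4 hearts, replicates 1 to 4, were at 0.21, 0.23, 0.47 and 0.44, and at ZT07 at 0.086, 0.098, 0.30 and 0.19. At ZT11 they were at -0.30, -0.22, -0.17 and 0.037, and at ZT15 at 0.0045, -0.23, -0.43 and -0.28. All 8 hearts of ZT03 and ZT07 thus lay above all 8 of ZT11 and ZT15. The ZT19 hearts were widely spread, at -0.18, -0.11, 0.058 and 0.32, and the ZT23 hearts were at -0.34, -0.19, -0.0045 and -0.28. The mean was 0.34 ± 0.14 (SD, n = 4) at ZT03 and -0.23 ± 0.18 at ZT15 (adjusted p = 0.022 in limma's F test). The call held with 23 of 24 hearts left out in turn and was lost without ZT03 replicate 3 (adjusted p = 0.063 with limma). Without ZT11 replicate 1 the adjusted p was 0.029, and without ZT19 replicate 2 it was 0.022, both with limma.

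Slc25a16 encodes an inner-membrane carrier first found as an autoantigen of Graves disease and linked to coenzyme A in mitochondria. Its hearts were at 0.30, 0.019, 0.13 and 0.10 at ZT03 and at 0.20, 0.038, 0.28 and 0.13 at ZT07. At ZT11 they were at -0.49, -0.39, -0.16 and 0.093, at ZT15 at 0.029, -0.37, -0.13 and -0.28 and at ZT19 at -0.11, 0.020, 0.12 and -0.019. The ZT23 hearts were the most uniformly low, at -0.21, -0.33, -0.39 and -0.26. All 8 hearts of ZT03 and ZT07 lay above all 4 of ZT23, while ZT11 replicate 4 and ZT15 replicate 1 reached into the early-light range. The mean fell from 0.16 ± 0.10 (SD, n = 4) at ZT07 to -0.24 ± 0.26 at ZT11 and was -0.30 ± 0.081 at ZT23 (adjusted p = 0.035 in limma's F test). This call was lost with 12 of the 24 hearts left out, with an adjusted p from 0.0083 to 0.074 with limma over the 24 removals. It held without ZT11 replicate 1 (0.037) and without ZT19 replicate 2 (0.044). The hearts whose removal ended it were ZT03 replicates 1, 2 and 3, ZT07 replicates 1, 3 and 4, ZT11 replicates 2 and 3, ZT15 replicate 4 and ZT23 replicates 2, 3 and 4.

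Next in order of p came Slc25a17, Slc25a40, Slc25a32 and Slc25a11, which did not pass over time points. Slc25a17 encodes a peroxisomal carrier of coenzyme A and other nucleotide cofactors. Its ZT03 hearts were at 0.058, 0.27, 0.070 and 0.090 and its ZT07 hearts at 0.091, 0.047, 0.22 and 0.17, against -0.47, -0.27, -0.26 and -0.030 at ZT11. In the dark phase they were at 0.026, -0.016, 0.11 and -0.092 at ZT15, 0.016, -0.25, -0.091 and 0.17 at ZT19 and -0.056, -0.094, -0.073 and -0.025 at ZT23. The ZT11 hearts were low, with all 4 below every heart of ZT03 and ZT07 (adjusted p over time points = 0.066 with limma, and 0.040 without ZT19 replicate 2).

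Slc25a40, which encodes an importer of glutathione into mitochondria, was narrowly low at ZT15, at -0.23, -0.22, -0.23 and -0.20. Its ZT03 hearts were at 0.094, 0.065, 0.22 and -0.00078 and its ZT07 hearts at 0.11, 0.070, 0.14 and 0.081, all above the ZT15 hearts. Its ZT11 hearts were spread, at -0.36, 0.12, -0.13 and 0.022, with replicate 1 the lowest. The ZT19 hearts were at -0.052, -0.054, 0.00078 and 0.015 and the ZT23 hearts at -0.028, -0.26, -0.22 and 0.056. The adjusted p over time points was 0.10 with limma, and 0.033 without ZT11 replicate 1.

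Slc25a32, which encodes the mitochondrial folate transporter, did not share the low at ZT11. Its hearts were at -0.026, 0.16, 0.046 and 0.20 at ZT03, -0.0012, 0.057, -0.013 and 0.0012 at ZT07 and 0.28, 0.14, -0.029 and 0.094 at ZT11. At ZT15 they were at -0.16, 0.055, -0.30 and -0.11, at ZT19 at 0.070, -0.046, 0.065 and 0.10 and at ZT23 at -0.11, -0.12, -0.040 and -0.23. The means of ZT15 (-0.13 ± 0.15, SD, n = 4) and ZT23 (-0.12 ± 0.077) were the lowest (adjusted p over time points = 0.12 with limma).

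Slc25a11 encodes the exchanger of malate for oxoglutarate, the other carrier step of the malate-aspartate shuttle. Its ZT03 hearts were at 0.15, 0.15, 0.32 and 0.27 and its ZT15 hearts at 0.080, -0.25, -0.19 and -0.13, with no overlap. The ZT07 hearts were at 0.14, -0.13, 0.13 and 0.078 and the ZT23 hearts at -0.19, -0.17, -0.015 and -0.28. Hearts differed most at ZT11, at -0.32, -0.17, -0.095 and 0.23, and at ZT19, at -0.21, 0.021, 0.015 and 0.37. The adjusted p over time points was 0.27 with limma.

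**Figure D2:**
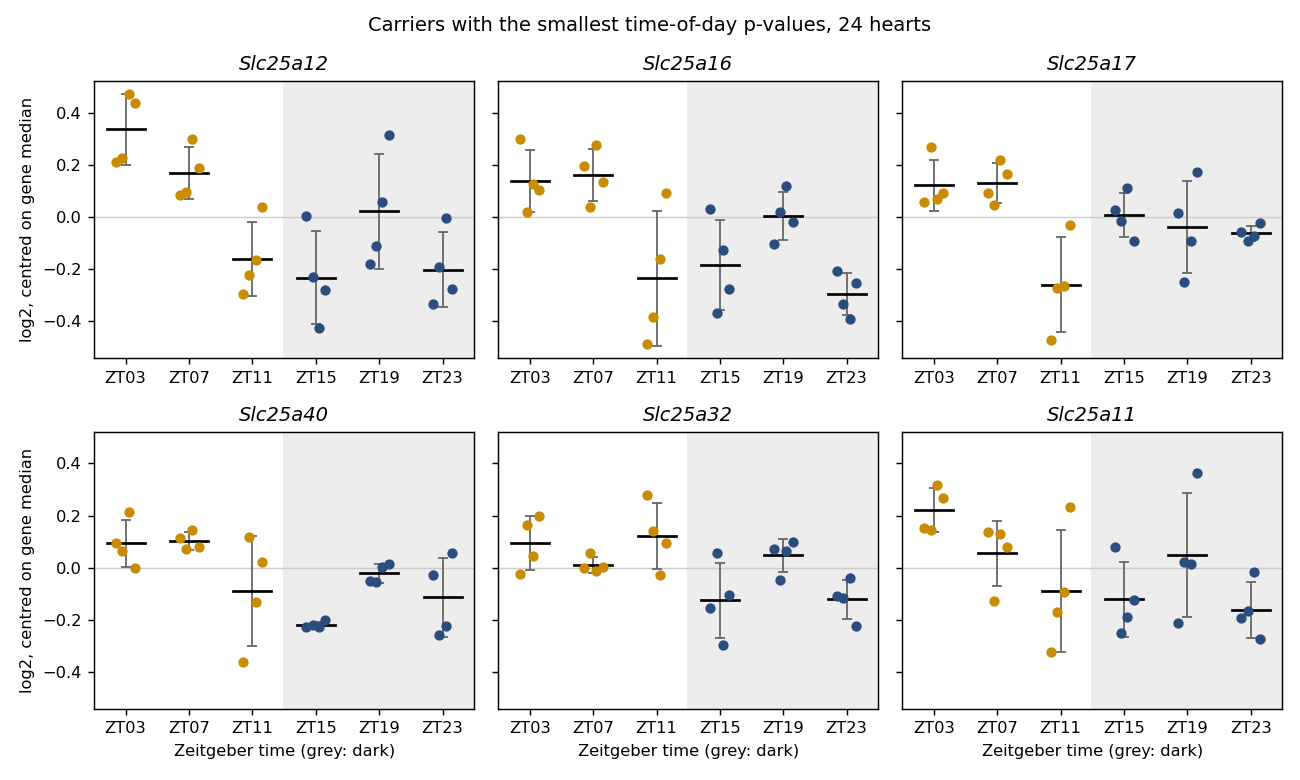
Values of the 6 carriers with the smallest time-of-day p-values in each of the 24 hearts (x axis, zeitgeber time, dark phase shaded; y axis, log2 around the gene's median; points, hearts; black bars, means of 4; grey bars, SD). For Slc25a12 the ZT03 and ZT07 hearts lie between 0.086 and 0.47, above all ZT11 and ZT15 hearts. For Slc25a17 all ZT11 hearts lie below all ZT03 and ZT07 hearts.

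Between ZT03 and ZT15, 12 h apart, Slc25a12 was higher at ZT03 by 0.57 ± 0.11 (SE, adjusted p = 0.018 with limma) and was the 1 member that passed, where 1.08% of all genes did, 0.879% in this direction. Its call was lost without ZT03 replicate 3 (0.069), ZT15 replicate 3 (0.057) or ZT15 replicate 4 (0.050). Slc25a40 followed, with a difference of 0.31 ± 0.077 (adjusted p = 0.051 with limma), and passed without ZT11 replicate 1 (0.016). The hearts of the 2 time points did not overlap for 5 members that were higher at ZT03 (Slc25a4, Slc25a11, Slc25a12, Slc25a13 and Slc25a40) and for 1 that was lower (Slc25a18, a glutamate carrier). Of all genes, 4.62% and 3.41% separated in these directions. With an unadjusted p under 0.05, 9 members were higher at ZT03 and 1 lower, Slc25a48, against 7.96% and 5.05% of all genes. The median difference over the 46 members was 0.044, with 26 of them positive, and -0.0051 over all genes, with 46.6% positive. Over genes of the higher number class it was 0.046.

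Within the light phase, Slc25a12 and Slc25a17 were higher at ZT03 than at ZT11. The difference was 0.50 ± 0.11 (SE) for Slc25a12 (adjusted p = 0.016 with limma) and 0.38 ± 0.082 for Slc25a17 (adjusted p = 0.016). These 2 members passed, where 2.29% of all genes did, 1.83% in this direction. The ZT03 hearts enter this comparison and the previous one. This one was chosen with earlier results of these data known, which put most time-of-day maxima at ZT03 and most minima at ZT11. Its p-values are therefore not those of a comparison fixed in advance. Both calls were lost without ZT11 replicate 1, the heart that stood apart, at 0.45 for Slc25a12 (adjusted p = 0.063 with limma) and 0.31 for Slc25a17 (0.068). Slc25a12 also missed the threshold without ZT03 replicate 3 (0.068), and Slc25a17 without ZT03 replicate 2 (0.066). ZT11 replicate 4 was the highest ZT11 heart in all of these carriers except Slc25a40 and Slc25a32, so its removal lowers their ZT11 means. Without it, Slc25a11 and Slc25a16 passed beside Slc25a12 and Slc25a17. Over all genes, the number that passed ranged from 190 to 747 with 1 heart left out (507 with all hearts). With all hearts, Slc25a16 differed by 0.37 ± 0.10 (adjusted p = 0.056 with limma). With an unadjusted p under 0.05, 9 members were higher at ZT03 and 0 lower, against 8.99% and 5.52% of all genes. All ZT03 hearts lay above all ZT11 hearts for 4 members, Slc25a12, Slc25a17, Slc25a36 and Slc25a46, where 4.62% of all genes did so, and 0 members were separated the other way (all genes 3.47%). The median difference was 0.018 over the members, -0.0050 over all genes and 0.045 over the higher number class.

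**Figure D3:**
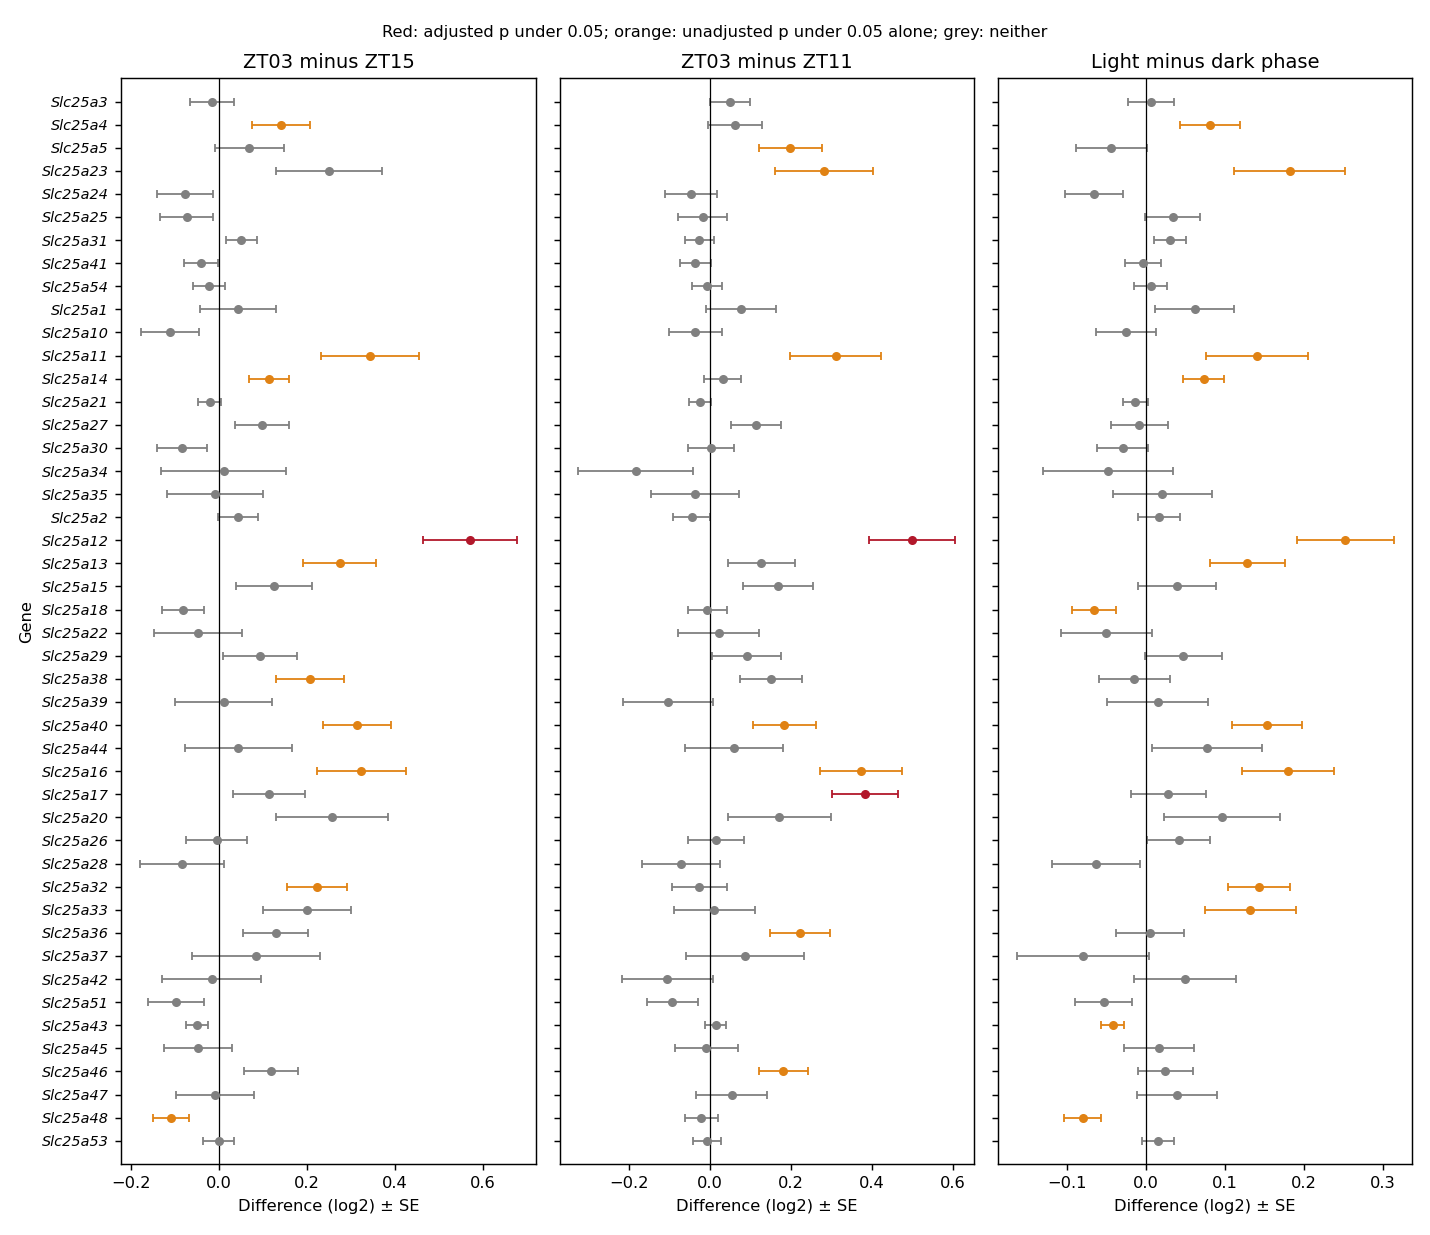
Difference of each of the 46 SLC25 genes between ZT03 and ZT15, ZT03 and ZT11, and the light and dark phases (x axis, log2 difference with SE; y axis, gene in role order; red, adjusted p under 0.05; orange, unadjusted p under 0.05 alone). Slc25a12 lies farthest right in each panel, at 0.57, 0.50 and 0.25.

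For the mean of the light phase against that of the dark phase, 0 members passed in limma, where 0.379% of all genes did, and 13 had an unadjusted p under 0.05. Of these, 10 were higher in the light (all genes 6.30%) and 3 lower (all genes 4.23%). Slc25a12 was higher by 0.25 ± 0.061 (SE, adjusted p = 0.083), with 10 of 12 light-phase hearts exceeding the dark-phase median. Slc25a32 was higher by 0.14 ± 0.039 (adjusted p = 0.12), in 12 of 12 hearts, and Slc25a40 by 0.15 ± 0.045 (adjusted p = 0.15), in 10 of 12. Without ZT11 replicate 1, Slc25a12 and Slc25a40 passed (adjusted p = 0.049 and 0.018 with limma), and Slc25a12 passed also without ZT15 replicate 1 (0.041) or ZT19 replicate 4 (0.025). The 3 members with lower values in the light were Slc25a18, Slc25a43 and Slc25a48, with differences of -0.066 ± 0.028, -0.042 ± 0.015 and -0.080 ± 0.023.

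Fitted to a 24 h cosine, Slc25a12 had an amplitude, from mean to peak, of 0.21 ± 0.058 (SE) with a peak at ZT3.97 (adjusted p = 0.23 with limma). Slc25a40 had an amplitude of 0.13 ± 0.036 (peak ZT4.29, adjusted p = 0.25) and Slc25a13 one of 0.11 ± 0.036 (peak ZT4.17, adjusted p = 0.36). In limma's test 0 members passed, where 0.0631% of all genes did, and 7 had an unadjusted p under 0.05, against 10.8% of all genes. With 1 cycle sampled, such a curve describes the profile and cannot show that it repeats. The median amplitude was 0.052 over the members and 0.032 over all genes, and 0.058 over the higher number class.

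Among the carriers of adenine nucleotides and phosphate (9 members), 0 passed over time points. Slc25a4 encodes the main ADP/ATP exchanger of heart muscle. Its means ran from -0.067 ± 0.16 (SD, n = 4) at ZT23, with replicate 4 at -0.30, to 0.085 ± 0.071 at ZT03. Its ZT03 hearts were at 0.0087, 0.16, 0.13 and 0.041 and its ZT15 hearts at -0.031, -0.053, -0.053 and -0.086. The ZT15 hearts were all below 0 and all below the ZT03 hearts, a difference of 0.14 ± 0.066 (SE, adjusted p = 0.37 with limma). Slc25a5, the more widely expressed exchanger, had its lowest mean at ZT11 (-0.13 ± 0.11, SD, n = 4) and its highest at ZT03 (0.070 ± 0.14). Slc25a3, the phosphate carrier that feeds ATP synthase, had means from -0.050 at ZT19 to 0.049 at ZT15, a range of 0.099 (adjusted p over time points = 0.80 with limma). The widest range of the group was that of Slc25a23, a calcium-regulated carrier that exchanges ATP-Mg for phosphate, from -0.19 ± 0.081 at ZT23 to 0.25 ± 0.14 at ZT03 (adjusted p = 0.32). Its relatives Slc25a24, Slc25a25, Slc25a41 and Slc25a54 had ranges of 0.20, 0.19, 0.041 and 0.044. Slc25a31, a form mainly of testis, had a range of 0.077.

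Carriers of di- and tricarboxylates and their relatives (9 members) held 0 calls and, besides Slc25a11, ranges of time-point means from 0.035 for Slc25a21 to 0.27 for Slc25a34, with 0.11 for Slc25a27 and 0.15 for Slc25a30. Slc25a1, which exports citrate, went from -0.094 at ZT23 to 0.066 at ZT03, and Slc25a10, which carries malate and succinate against phosphate, from -0.075 at ZT23 to 0.053 at ZT15. Neither passed (adjusted p over time points = 0.85 and 0.83 with limma). Slc25a14, of the branch that includes the uncoupling proteins, was higher at ZT03 than at ZT15 by 0.11 ± 0.045 (SE, adjusted p = 0.26). The value of Slc25a35, with a range of 0.16, comes from the feature named for it alone, and another feature that it shares with Rangrf was not used.

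Amino acid and glutathione carriers (11 members) held 1 call over time points, Slc25a12 (all genes 1.48%), and 4 members with an unadjusted p under 0.05, namely Slc25a12, Slc25a13, Slc25a38 and Slc25a40 (all genes 13.4%). Their median difference between ZT03 and ZT15 was 0.094, with 9 of 11 positive (all genes 46.6%). Between ZT03 and ZT11, 8 of 11 were positive (all genes 46.3%). For ZT03 minus ZT15, 4 of 9 adenine nucleotide and phosphate carriers and 5 of 9 di- and tricarboxylate carriers were positive. So were 7 of 11 carriers of cofactors, nucleotides, carnitine and iron (median 0.11) and 1 of 6 with other or little known substrates. Slc25a13, which encodes citrin, the aspartate-glutamate exchanger of liver that heart also expresses, had ZT03 hearts at 0.17, 0.0044, 0.0014 and 0.26 and ZT15 hearts at -0.016, -0.20, -0.24 and -0.21. All ZT15 hearts lay below all ZT03 hearts, and the difference was 0.27 ± 0.083 (SE, adjusted p = 0.11 with limma). Slc25a38, the glycine importer that supplies haem synthesis, was lowest at ZT15 (-0.13 ± 0.17, SD, n = 4) and highest at ZT19 (0.11 ± 0.10). Slc25a39, the paralog of the glutathione importer gene Slc25a40, had means from -0.043 at ZT15 to 0.071 at ZT11 (adjusted p over time points = 0.98, against 0.10 for Slc25a40, with limma). The difference between these paralogs was not tested. For the ornithine carrier Slc25a15 the range of means was 0.17 and for its paralog Slc25a2 0.094. It was 0.20 for Slc25a29, a carrier of basic amino acids, 0.18 for Slc25a44, a carrier of branched-chain amino acids, and 0.15 and 0.13 for the glutamate carriers Slc25a22 and Slc25a18.

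Carriers of cofactors, nucleotides, carnitine and iron (11 members) held the calls of Slc25a16, over time points, and of Slc25a17, between ZT03 and ZT11. Slc25a20, which brings acylcarnitines to fatty acid oxidation, had ZT03 hearts at 0.037, 0.16, 0.42 and 0.16 and ZT23 hearts at -0.055, -0.24, -0.013 and -0.20. It was also among the most variable between hearts, with an SD of 0.28 at ZT19 and 0.23 at ZT15 (adjusted p over time points = 0.63 with limma). The pyrimidine nucleotide carriers Slc25a33 and Slc25a36 had their lowest means at different times, -0.14 at ZT23 and -0.11 at ZT11. All 4 ZT03 hearts of Slc25a36 lay above its ZT11 hearts, by 0.22 ± 0.074 in the mean (SE, adjusted p = 0.13). The mitoferrin genes of iron import, Slc25a28 and Slc25a37, had ranges of 0.12 and 0.21, with SDs up to 0.20 and 0.36 at ZT11. The ranges were 0.19 for Slc25a26, the S-adenosylmethionine carrier, 0.16 for Slc25a42, a coenzyme A carrier, and 0.13 for Slc25a51, the NAD carrier. Of the remaining 6 members, whose substrates are other or little known, Slc25a46 was lower at ZT11 than at ZT03 in all hearts (0.18 ± 0.060 for ZT03 minus ZT11, adjusted p = 0.13 with limma). Slc25a48, whose unadjusted p over time points was 0.045, had its lowest mean at ZT07 (-0.057) and its highest at ZT15 (0.068). Slc25a43, Slc25a45, Slc25a47 and Slc25a53 had ranges of 0.064, 0.14, 0.13 and 0.040.

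The malate-aspartate shuttle joins the 3 carriers Slc25a11, Slc25a12 and Slc25a13 to 4 enzymes. The genes of the 4 enzymes lay in the higher number class, as did Slc25a11 and Slc25a12 but not Slc25a13. Of the enzymes, 0 of 4 passed over time points. Mdh1, the cytosolic malate dehydrogenase, followed the carriers in direction: its ZT03 hearts were at 0.028, 0.17, 0.16 and 0.18 and its ZT11 hearts at -0.24, -0.088, -0.078 and -0.0034. No ZT11 heart reached the ZT03 range, and the difference of 0.24 ± 0.056 (SE) passed (adjusted p = 0.026 with limma). It missed the threshold without ZT11 replicate 1 (adjusted p = 0.11) and without ZT03 replicate 2, 3 or 4 or ZT11 replicate 3. Got2, the mitochondrial aspartate aminotransferase, ran the other way, with ZT03 hearts at 0.0076, -0.024, -0.063 and -0.039 and ZT11 hearts at 0.036, 0.072, 0.083 and 0.12. Its difference was -0.11 ± 0.031 (adjusted p = 0.069). Mdh2, the mitochondrial malate dehydrogenase, was at -0.028 ± 0.16 (SD, n = 4) at ZT03 and 0.11 ± 0.046 at ZT11, and Got1, the cytosolic aminotransferase, at 0.037 ± 0.13 and 0.031 ± 0.086. ZT19 replicate 4 was the highest ZT19 heart in Slc25a11 (0.37), Slc25a12 (0.32), Slc25a13 (0.21), Mdh1 (0.21) and Slc25a20 (0.38). It was the highest of the 4 ZT19 hearts in 18 of the 46 members and in 25.4% of all genes.

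**Figure D4:**
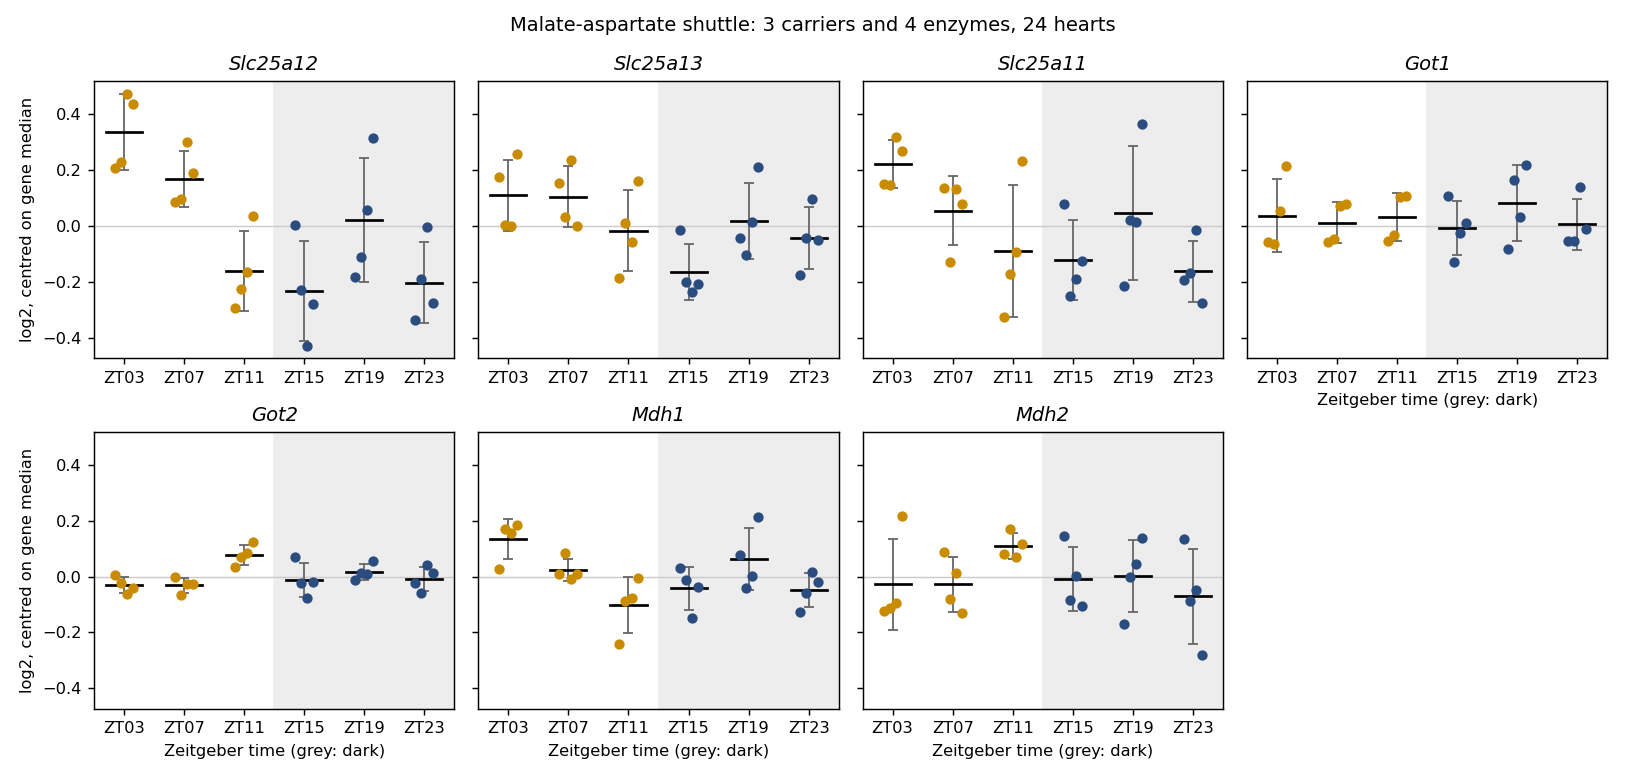
Genes of the malate-aspartate shuttle in each of the 24 hearts (x axis, zeitgeber time, dark phase shaded; y axis, log2 around the gene's median; points, hearts; black bars, means of 4; grey bars, SD). The carriers Slc25a12, Slc25a13 and Slc25a11 and the enzyme gene Mdh1 have their highest means at ZT03, while Got2 and Mdh2 have theirs at ZT11.

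Of the family's genes under other symbols (4 of 5 measured), Mtch2 passed over time points (adjusted p = 0.035 with limma), where 1.48% of all genes did. Its protein inserts others into the outer mitochondrial membrane. The ZT03 hearts of Mtch2 were at 0.25, 0.33, 0.46 and 0.035 and its ZT11 hearts at -0.32, -0.27, -0.29 and -0.18, a difference of 0.53 ± 0.10 (SE, adjusted p = 0.0098). This difference passed in 24 of 24 removals of 1 heart, while the call over time points held in 14 and was lost without ZT11 replicate 1 (adjusted p = 0.066 with limma). The uncoupling protein genes Ucp1 and Ucp3 and Mtch1 did not pass (adjusted p = 0.76, 0.69 and 0.76). Among other transporters of both mitochondrial membranes, 1 of 17 measured passed over time points (all genes 1.48%). This was Vdac2, a channel of the outer membrane, with ZT03 hearts at 0.12, 0.14, 0.20 and 0.29 and ZT11 hearts at -0.14, -0.16, -0.14 and -0.077 (adjusted p = 0.018), a call that held in 23 of 24 removals and was lost without ZT03 replicate 3 (0.051). The pyruvate carrier gene Mpc1 had an adjusted p of 0.27, and the sideroflexin genes Sfxn2 and Sfxn4 0.41 and 0.51. In the import route of carrier precursors, 1 of 12 passed (all genes 1.48%). This was Tomm70a, whose protein is the receptor for these precursors on the outer membrane (adjusted p = 0.036 with limma). Its means were -0.083 ± 0.096 (SD, n = 4) at ZT03, -0.19 ± 0.089 at ZT11 and 0.11 ± 0.10 at ZT23. The call held in 10 of 24 removals and was lost without ZT11 replicate 1 (adjusted p = 0.096 with limma). Of the carnitine shuttle enzymes (3 of 4 measured, without Cpt1b) and the users of nucleotides and phosphate (5 of 6 measured), 0 passed. Of the latter, Ckmt2, the mitochondrial creatine kinase gene of heart, had an adjusted p over time points of 0.64. Cpt1a, which makes acylcarnitines that SLC25A20 carries, was at -0.25 at ZT15 and 0.096 at ZT07 (adjusted p over time points = 0.37 with limma). Crat and Cpt2 had adjusted p-values of 0.20 and 0.54 in the same test.

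Markers of other cell types were read in the same hearts, beginning with fibroblasts. Of the 5 measured, 0 passed limma's F test and 4 had an unadjusted p under 0.05, where 13.4% of all genes did. Their mean per heart ran from 0.065 to 0.20 at ZT03 and from -0.100 to 0.0047 at ZT15, without overlap, and from -0.090 to 0.13 at ZT11, overlapping ZT03. Of the 5, Dcn, Lum, Pdgfra and Col1a1 had their highest mean at ZT03, and Col3a1 had its highest at ZT11 (0.12, against 0.080 at ZT03). Dcn, the proteoglycan gene decorin, was higher at ZT03 than at ZT15 by 0.30 ± 0.072 (SE, adjusted p = 0.047), a call that held in 8 of 24 removals of 1 heart. Of 4 skeletal muscle genes, Ckm, a creatine kinase gene that heart expresses as well, passed over time points in the opposite sense, at -0.28 ± 0.11 (SD, n = 4) at ZT03 and 0.26 ± 0.11 at ZT11 (adjusted p = 0.018, and 0.051 without ZT03 replicate 3). The mean of these 4 genes ran from -0.31 to -0.0063 over the ZT03 hearts and from -0.035 to 0.13 over the ZT11 hearts. Acta1 and Myh4 also had a lower mean at ZT03 than at ZT11, while Myh1 had a higher one. The ZT03 hearts of Acta1 were widely spread, from -0.77 to 0.16. The mean of the 6 cardiomyocyte markers ran from -0.088 to 0.051 over the ZT03 hearts and from -0.018 to 0.073 over the ZT11 hearts, and 0 of them passed over time points. Between ZT03 and ZT11, Tnni3, a troponin gene, was the 1 cardiomyocyte marker that passed, at -0.23 ± 0.058 (SE, adjusted p = 0.038 with limma, and 0.13 without ZT11 replicate 1). Myh6, Actc1 and Mb also had a lower mean at ZT03 than at ZT11, while Ryr2 and Tnnt2 had a higher one. Markers of endothelium (4), smooth muscle (4), macrophages (4) and adipocytes (3) held 0 calls over time points. The part of cell makeup in the carriers' differences was not tested, and in whole hearts fewer cells of a type and less RNA per cell cannot be told apart.

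**Figure D5:**
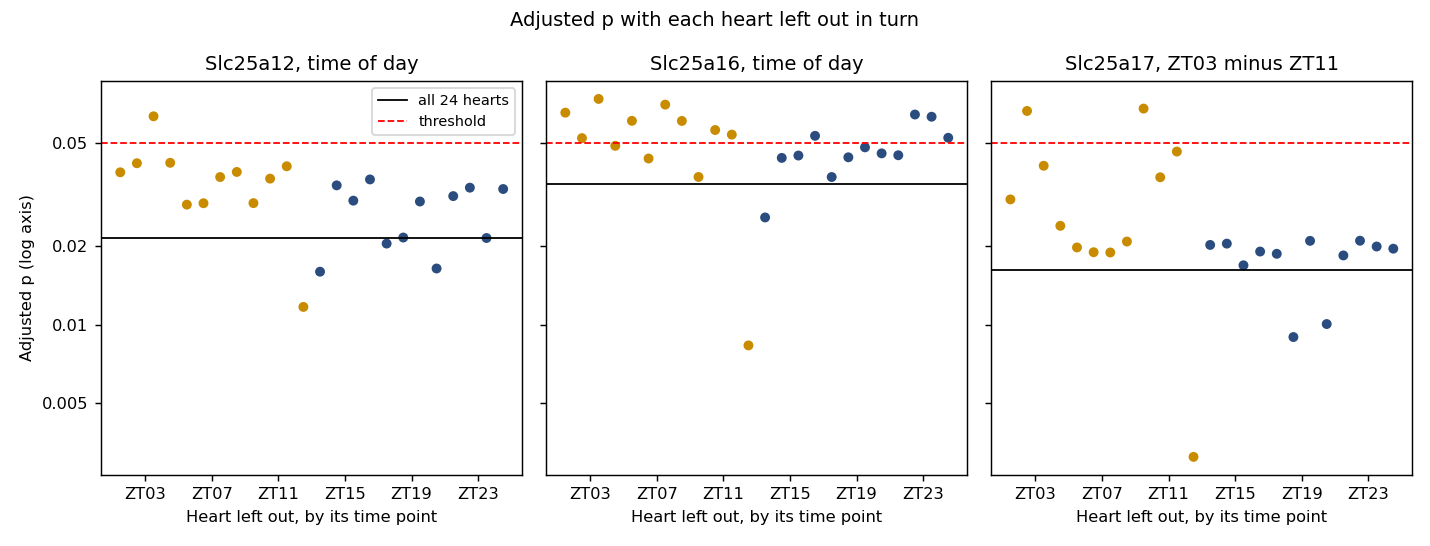
Adjusted p of the 3 members that passed, after removal of 1 heart at a time (x axis, time point of the heart left out; y axis, adjusted p on a log axis; black line, all 24 hearts; red dashes, 0.05). Slc25a12 stays under 0.05 in 23 of 24 removals, Slc25a16 in 12 and Slc25a17, in ZT03 minus ZT11, in 22.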

How the data were processed

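The series holds 24 single-colour Affymetrix arrays of heart RNA, labelled as biotinylated cRNA per the labels' protocols. The deposited numbers are logarithms, treated here as log2. Each of 34351 features has a median of 0 over the arrays, a centring that the authors applied before deposit, as the values show. The log base, summarization, normalization and filters are not given in the sources used here. With a natural log, every size would be 1.44 times larger and no p would change. Features were named through the platform annotation: 23521 had 1 symbol, 1814 several and 9016 none. Features of one symbol were averaged, giving 22180 genes, all tested without a filter, since centred values hold no level.

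Tests used limma 3.58.1 in R 4.3.3 (lmFit and eBayes), with Benjamini-Hochberg adjustment over all genes at 0.05, and were tested on simulated data. Named in full were members that passed any of the 5 tests, filled to 6 by the smallest p of the F test, plus carriers central to cardiac energy supply; of other lists, up to 4 genes with the smallest p, and Dcn, Ckm and Tnni3 chosen after their values were seen. The members, the lists and the comparison of ZT03 with ZT11 were chosen with earlier results of these data known. Errors are SE of the fit or SD within a time point. The labels call the replicates biological and do not say whether each is 1 animal. The p-values weigh differences against the spread between these samples, whatever unit each one is. Alternatives were a replicate block, quantile normalization, array weights, a robust fit, separate features, a 12 h pair beside the 24 h pair and each heart left out. Erythrocyte markers were not analysed here.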

Additional observations from a re-analysis of the deposited data

Results flagged for a closer look

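Among 66 groups of 4 hearts (11 carriers at 6 time points), 2 hearts lay far from the other 3 of their group, where chance gives about 1 in 20. Slc25a17 was at 0.27 in ZT03 replicate 2, with the other ZT03 hearts between 0.058 and 0.090, and its call between ZT03 and ZT11 was lost without this heart. Slc25a13 was at -0.016 in ZT15 replicate 1, with the other ZT15 hearts between -0.24 and -0.20.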

How the results depend on the processing

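With each heart left out in turn, the number of members that passed ranged from 0 to 3 over time points (2 with all hearts), from 0 to 2 for light minus dark (0), from 0 to 2 for ZT03 minus ZT15 (1) and from 0 to 4 for ZT03 minus ZT11 (2). It stayed at 0 for the 24 h cosine, where members with an unadjusted p under 0.05 ranged from 4 to 10 (7). Array weights gave 4 members over time points and 2 for ZT03 minus ZT15. Quantile normalization gave 1 for light minus dark and 2 for ZT03 minus ZT15. Leaving out ZT11 replicate 1 and ZT19 replicate 2 together, an alternative chosen after seeing the data, gave 1 for light minus dark, 2 for ZT03 minus ZT15 and 1 for ZT03 minus ZT11. All other alternatives left these counts within 1.5 times. Over all genes, with 1 heart left out, the count ranged from 28 to 467 over time points (329), 25 to 326 for ZT03 minus ZT15 (239), 190 to 747 for ZT03 minus ZT11 (507), 51 to 183 for light minus dark (84) and 3 to 45 for the cosine (14), so the shares of all genes given beside the members move likewise.

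Whether replicate numbers pair the hearts was not settled. Of 60 pairs of same-numbered hearts at different times, 8 had deviations correlated above 0.1 (median -0.00075, highest 0.23). For pairs of unlike number the median was -0.00096, and 10 of 24 hearts correlated best with a heart of their own number. With the replicate number as a block, 2 members passed over time points, 0 for the 24 h cosine and light minus dark, 1 for ZT03 minus ZT15 and 2 for ZT03 minus ZT11, the same genes as without it.

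Among the 11 named carriers, signs turned for differences close to 0. With hearts left out, Slc25a3 ranged from -0.0083 to 0.017 for light minus dark and from -0.061 to 0.015 for ZT03 minus ZT15, and Slc25a32 from -0.076 to 0.027 for ZT03 minus ZT11. Without both hearts that stand apart, the last was 0.027. The cause of these changes was not tested. Signal over background is unknown for these arrays.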
